A study of Mus musculus with 28 samples.

Results

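Suz12 occupancy was set against trimethylated histone H3 lysine 27 (H3K27me3) in mesodermal cultures from which *Brg1* had been deleted, and the genes that carried Suz12 without the mark were named. The cultures came from 1 mouse embryonic stem cell line, Brg1f/f; Actin-CreER, in which both *Brg1* alleles are floxed and a tamoxifen-dependent Cre recombinase is driven by an actin promoter. Embryoid bodies were grown without serum, and from day 2 they were reaggregated for 40 h with VEGF, Activin A and BMP4 and harvested at day 4. Deletion was induced at day 2 with 200 nM 4-hydroxytamoxifen (4-OHT) in tetrahydrofuran (THF), and control cultures of the same line received THF alone. The members were the 5 4-OHT libraries of these antibodies, 2 for Suz12 and 3 for H3K27me3, of 28 libraries in all. The matching control libraries, 2 for Suz12 and 3 for H3K27me3, served only for comparison. Floxed alleles, Cre and vehicle were shared by both groups. The region lists hold no expression values, so the extent of deletion could not be checked from them.

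Suz12 is a core subunit of Polycomb repressive complex 2 (PRC2), which also holds the methyltransferase Ezh1 or Ezh2 and places H3K27me3. The complex gathers at CpG islands of developmental regulators, and the mark spreads from there over the silenced gene. Brg1 is the ATPase of BAF chromatin remodelling complexes, which are known to oppose Polycomb at many genes. The authors cite earlier work in embryonic stem cells in which Brg1 instead promoted PRC2 repression at *Hox* genes. H3K27 acetylation (H3K27ac) uses the same lysine and marks active promoters and enhancers, so a single histone tail cannot carry both on that residue.

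Each library was given as a list of enriched regions called over input, with no score and no read count, so sequencing depth is unknown and the number and width of the regions are all that each list shows. The Suz12 lists held 3654 and 4016 regions in 4-OHT and 2951 and 2913 in control. The H3K27me3 lists held 6787 to 10394 regions over 4.74 to 8.99 Mb in 4-OHT and 8798 to 16959 regions over 8.38 to 11.0 Mb in control. H3K27me3 replicate 1 stood apart in both conditions, with the most regions, the lowest median width (250 bp, against 350 to 425 bp in the others) and no region wider than 9300 bp. It overlapped 35.3% and 34.7% of the regions of the 4-OHT Suz12 replicates, whereas H3K27me3 replicates 2 and 3 overlapped 67.1 to 85.4%. Therefore the number of regions outside the mark, the differences in overlap between conditions and the number of genes are also given without replicate 1. So are the CpG-rich and H3K27ac shares of the regions outside. Other results are given with it only. Without it the mark had to be called in both of the other libraries, which is stricter than 2 of 3. As a check of the cell type, H3K27ac was called in both 4-OHT libraries within 5 kb of a transcription start site (TSS) at 12 of 14 mesoderm markers, including *T*, *Mixl1*, *Eomes*, *Mesp1* and *Tbx6*, and at neither the mesoderm receptor gene *Kdr* nor *Mesp2*. The same was found for 10 of 13 pluripotency genes, 0 of 8 endoderm markers and 1 of 8 neuroectoderm markers (*Otx2*), against 50.3% of all 22380 protein-coding genes.

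The sequences under Suz12 are shown first for genes without the mark, because regions outside the mark were richer in CpGs than those in it. Each is the central 300 bases of a Suz12 region called in both 4-OHT replicates, read 5′ to 3′ on the plus strand of the mm9 (NCBIM37) genome, with CpG dinucleotides in capitals. The genes were taken in order of Suz12-covered length, leaving out *Pcdh1*, for which no sequence is shown, and centres that overlap an annotated untranslated region. The centre at *Chadl* (chr15:81524688-81524987) lay in a coding exon and held 44 CpGs. At *Cdh13* (chr8:120807951-120808250) it lay in an intron and held 16. The centre shared by *Itpkb* and the neighbouring *Gm5069* (chr1:182262501-182262800) lay in a coding exon of *Itpkb* and held 24. Those at *Lemd1* (chr1:134087063-134087362) and *Rbm20* (chr19:53751126-53751425) were intergenic, upstream of the genes, and held 47 and 21, and that at *E130012A19Rik* (chr11:97489963-97490262) was in a coding exon and held 29.
Chadl: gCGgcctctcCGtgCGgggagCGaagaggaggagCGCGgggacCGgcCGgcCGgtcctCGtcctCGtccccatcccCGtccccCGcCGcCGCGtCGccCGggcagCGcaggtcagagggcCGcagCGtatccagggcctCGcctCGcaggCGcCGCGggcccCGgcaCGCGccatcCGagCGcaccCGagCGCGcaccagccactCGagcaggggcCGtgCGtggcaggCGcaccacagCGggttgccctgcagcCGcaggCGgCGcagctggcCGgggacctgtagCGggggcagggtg
Cdh13: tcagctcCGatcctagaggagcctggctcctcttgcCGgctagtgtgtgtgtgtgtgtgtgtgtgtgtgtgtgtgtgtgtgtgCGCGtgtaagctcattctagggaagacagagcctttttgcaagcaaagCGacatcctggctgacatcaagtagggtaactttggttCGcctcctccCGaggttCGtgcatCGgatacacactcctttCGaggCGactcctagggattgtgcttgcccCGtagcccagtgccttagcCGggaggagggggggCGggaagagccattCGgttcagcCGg
Itpkb and Gm5069: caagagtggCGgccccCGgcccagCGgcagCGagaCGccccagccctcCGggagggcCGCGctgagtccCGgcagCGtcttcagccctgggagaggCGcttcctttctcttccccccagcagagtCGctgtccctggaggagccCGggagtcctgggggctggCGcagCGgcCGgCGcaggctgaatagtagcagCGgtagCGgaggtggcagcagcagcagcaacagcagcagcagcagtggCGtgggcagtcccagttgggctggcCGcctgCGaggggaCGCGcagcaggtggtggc
Lemd1: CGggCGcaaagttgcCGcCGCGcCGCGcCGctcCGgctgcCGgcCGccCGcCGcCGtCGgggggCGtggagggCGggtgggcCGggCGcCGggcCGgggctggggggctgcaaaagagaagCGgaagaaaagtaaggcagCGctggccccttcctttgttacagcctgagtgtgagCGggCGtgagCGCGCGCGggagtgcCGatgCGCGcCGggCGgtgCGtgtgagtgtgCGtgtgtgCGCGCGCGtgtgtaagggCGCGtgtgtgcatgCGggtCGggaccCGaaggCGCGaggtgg
Rbm20: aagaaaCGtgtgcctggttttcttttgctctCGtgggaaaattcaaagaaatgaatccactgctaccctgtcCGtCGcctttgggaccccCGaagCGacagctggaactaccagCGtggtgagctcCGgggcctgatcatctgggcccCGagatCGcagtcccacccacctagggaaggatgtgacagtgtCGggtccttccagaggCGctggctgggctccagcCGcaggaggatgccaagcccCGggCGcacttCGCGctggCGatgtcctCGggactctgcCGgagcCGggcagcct
E130012A19Rik: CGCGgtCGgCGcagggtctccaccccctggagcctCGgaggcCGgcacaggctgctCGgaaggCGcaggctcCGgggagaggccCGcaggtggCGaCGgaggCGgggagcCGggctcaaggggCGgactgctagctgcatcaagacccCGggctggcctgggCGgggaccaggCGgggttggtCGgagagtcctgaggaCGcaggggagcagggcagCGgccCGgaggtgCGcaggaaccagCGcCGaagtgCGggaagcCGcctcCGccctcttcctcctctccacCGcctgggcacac

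For contrast, the centres of wide Suz12 regions at *Hox* genes that carried both Suz12 and H3K27me3 were CpG-poor. They are not typical of the mark, where 68.3% of centres were CpG-rich by the rule given below. Their regions were also far wider than the 725 to 1100 bp of those above. The centre at *Hoxd3* (chr2:74573738-74574037), in an intron of a region 10625 bp wide, held 10 CpGs. That at *Hoxa3* (chr6:52163838-52164137), upstream of the annotated gene and in an exon of the overlapping record *2700086A05Rik*, lay in a region 11775 bp wide and held 4.
Hoxd3: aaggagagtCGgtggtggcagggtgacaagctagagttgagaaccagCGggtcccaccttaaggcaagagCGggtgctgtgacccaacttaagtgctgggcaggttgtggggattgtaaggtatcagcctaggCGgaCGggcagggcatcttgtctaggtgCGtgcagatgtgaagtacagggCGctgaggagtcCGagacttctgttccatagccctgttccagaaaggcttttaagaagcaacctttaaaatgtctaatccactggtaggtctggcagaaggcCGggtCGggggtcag
Hoxa3: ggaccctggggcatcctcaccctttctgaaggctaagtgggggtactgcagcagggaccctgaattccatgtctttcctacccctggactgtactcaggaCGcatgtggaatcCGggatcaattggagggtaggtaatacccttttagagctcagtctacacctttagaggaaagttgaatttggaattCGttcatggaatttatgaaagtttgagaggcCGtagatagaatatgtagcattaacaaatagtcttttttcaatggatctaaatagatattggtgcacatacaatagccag

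Most Suz12 lay in the mark. After merging, 2571 Suz12 regions covering 4.58 Mb were called in both 4-OHT replicates, and 5044 H3K27me3 regions covering 9.69 Mb (0.365% of the genome) were called in at least 2 of 3. Of the Suz12 regions, 2236 (87.0%, exact binomial interval 85.6 to 88.2, counting error over regions only) shared at least 1 bp with the mark, and 335 lay outside. Without H3K27me3 replicate 1 the number outside was 400. Of the 2236, 136 (6.08%) were overlapped by only 1 H3K27me3 library and counted as in the mark because calls of different replicates were joined. With the mark limited to bases called in at least 2 of 3, 81.5% of the Suz12 regions overlapped it and 476 lay outside. By bases, 87.1% of the Suz12 length was inside the mark, whereas 41.1% of the length of the mark was in a Suz12 region. The mark regions that held Suz12 numbered 2185 (43.3%) and were wide, with a median of 2425 bp. The 2859 without Suz12 had a median of 650 bp.

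The regions outside the mark divided into those beside it and those far from it. Of the 335, 218 lay within 5 kb of an H3K27me3 region, 183 of them within 1 kb, and 117 lay farther away, 81 of them by more than 100 kb. H3K27me3 was called in no library over 185 of the 335 and in 1 library over 137, and 116 of these 137 calls came from replicate 2. At the remaining 13, 2 or 3 libraries had calls that did not overlap each other. The widest of the 335, at *Sox3* on chromosome X, was of this kind: it was 3450 bp wide, held calls of all 3 H3K27me3 libraries, and lay 2375 bp from the nearest region shared by at least 2 of them. *Sox3*, a neural progenitor transcription factor, is therefore outside the mark only by the rule of joining replicates.

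Whether Suz12 lay outside the mark more often after deletion was asked replicate by replicate, with the mark taken from the same condition. In 4-OHT, 82.1% of the regions of Suz12 replicate 1 and 73.8% of those of replicate 2 overlapped H3K27me3. In control the shares were 92.0% and 91.2%. Both 4-OHT libraries were below both controls (78.0% ± 5.83 against 91.6% ± 0.584, SD, n = 2 each), a difference of -13.6 percentage points with a two-sided exact permutation p of 0.33. That is the smallest p that 2 against 2 libraries can give, so the difference could not reach significance in this design. With H3K27me3 replicate 1 left out of both conditions the difference was -15.9 points. When each Suz12 library was reduced to its 2913 widest regions, the shares were 87.2% and 83.5% in 4-OHT and 92.3% and 91.2% in control, and the difference shrank to -6.42 points. This cut took the narrowest regions out of the longer lists, and narrow regions lay outside the mark most often. The number of calls and their width therefore cannot be told apart here.

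**Figure D1:**
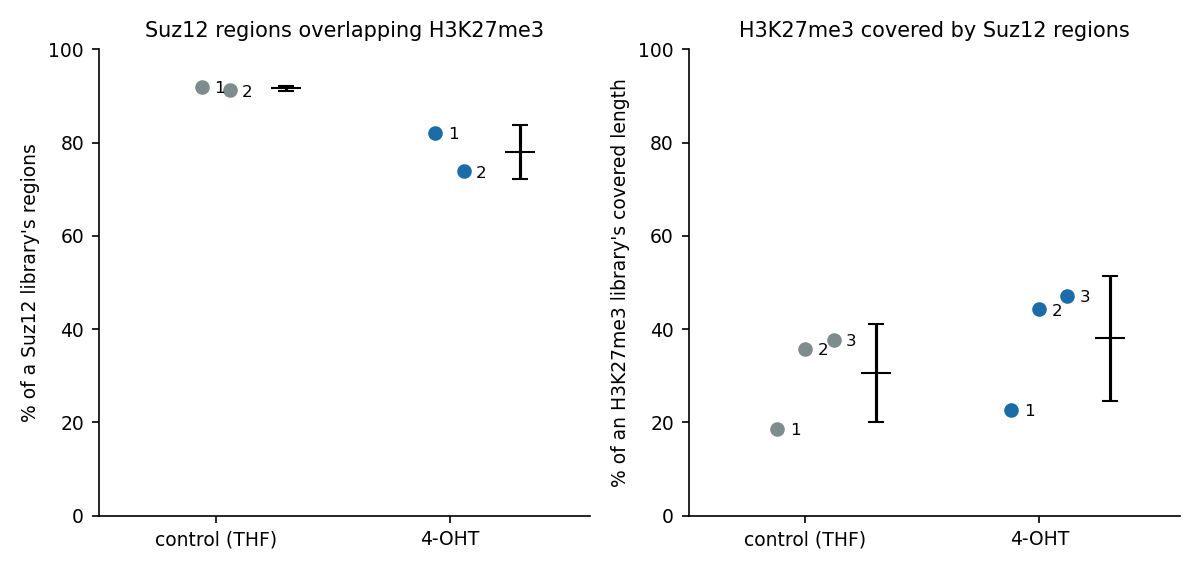
Percentage of each Suz12 library's regions that overlap H3K27me3 (left) and percentage of each H3K27me3 library's covered length that lies in Suz12 regions (right), in control and 4-OHT cultures. Points are libraries numbered by replicate, and bars are the mean ± SD; both 4-OHT Suz12 libraries (82.1% and 73.8%) sit below both controls, and H3K27me3 replicate 1 sits lowest in each condition.

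The H3K27me3 lists also covered less in 4-OHT than in control (7.12 ± 2.17 Mb against 9.81 ± 1.33 Mb, SD, n = 3 each, two-sided exact permutation p = 0.2, with 0.1 the smallest possible). In each same-numbered pair the 4-OHT library covered less, with 4.74, 8.99 and 7.62 Mb in replicates 1, 2 and 3 against 8.38, 11.0 and 10.03 Mb. The part this played in the result was not tested. Over the regions shared by replicates, 97.4% of 1988 control Suz12 regions were in the control mark and 52 lay outside. Set against the mark of the other condition, 91.1% of the 4-OHT Suz12 regions were in the control mark and 92.9% of the control Suz12 regions were in the 4-OHT mark. Seen from the mark, Suz12 regions covered 22.7%, 44.2% and 47.1% of the length of H3K27me3 replicates 1, 2 and 3 in 4-OHT and 18.6%, 35.7% and 37.7% in control. Each 4-OHT library was above the control of the same number, but the groups overlapped (38.0% ± 13.3 against 30.7% ± 10.5, SD, n = 3 each, difference 7.33 points, exact permutation p = 0.5). Without replicate 1 of both conditions the difference was 8.94 points (exact permutation p = 0.33).

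Regions outside the mark were narrow. Their median width was 450 bp, against 1275 bp for those in the mark. Among Suz12 regions under 250 bp wide, 65 of 125 (52.0%) were outside in 4-OHT and 19 of 90 (21.1%) in control. Between 500 and 1000 bp the shares were 16.0% and 1.64%. No region of 4000 bp or wider lay outside in either condition, of 255 in 4-OHT and 266 in control. In every width class below 4000 bp the share outside was higher in 4-OHT than in control, as the plot by width shows.

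**Figure D2:**
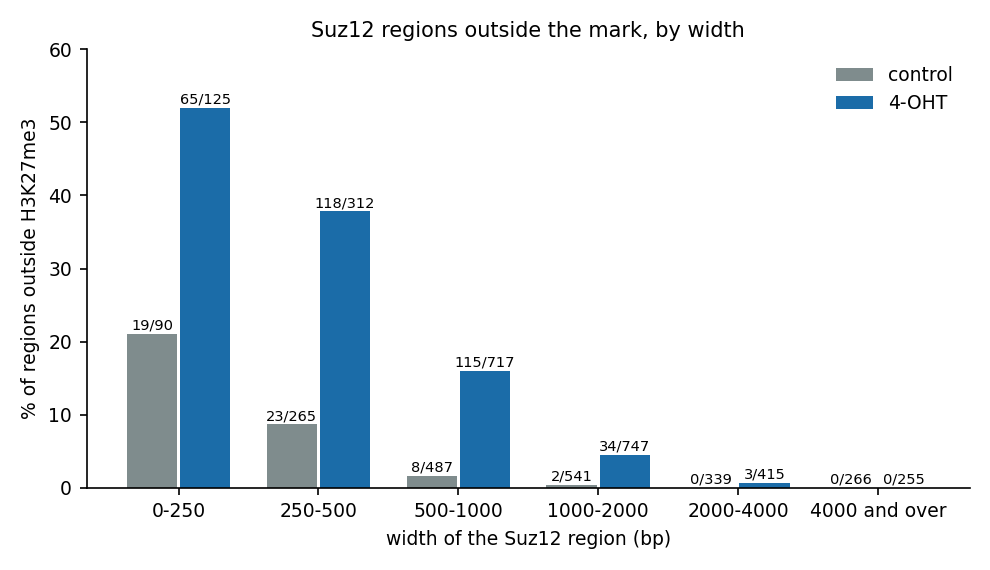
Percentage of Suz12 regions called in both replicates that lie outside H3K27me3, by width of the region in bp, in control (grey) and 4-OHT (blue), with the number outside and the total above each bar. The share falls from 52.0% under 250 bp to 0.723% between 2000 and 4000 bp in 4-OHT.

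Most regions outside the mark lay near a TSS and had a CpG-rich centre. A TSS lay within 2.5 kb of 280 of the 335 (83.6%), against 78.1% of those in the mark. The median GC content of the central 300 bases was 69.7% outside and 64.3% in the mark. The ratio of observed to expected CpGs had a median of 0.871 outside, 0.761 in the mark and 0.534 over equally long windows, 250 bases before to 50 after the 5′ end, of 22375 protein-coding genes. A CpG-rich centre, with a ratio of at least 0.6 and a GC content of at least 50%, was found in 92.2% of regions outside the mark (interval 88.8 to 94.9), 68.3% in the mark and 42.0% of the promoter windows. The regions over 5 kb from the mark had a share of 91.5% and the regions beside it 92.7%. Within width classes the order was the same, with 93.9% outside and 81.9% in the mark between 500 and 1000 bp. Without H3K27me3 replicate 1 the share outside was 90.0%. The CpG ratio also moved with the H3K27me3 libraries themselves, since Suz12 regions not overlapped by replicate 1, 2 or 3 had median ratios of 0.841, 0.877 and 0.859 and those overlapped had 0.652, 0.769 and 0.759. Control cultures showed the same order. There, 48 of 52 Suz12 regions outside the control mark had a CpG-rich centre (92.3%, interval 81.5 to 97.9), against 66.1% in it. A TSS lay within 2.5 kb of 82.7% of the control regions outside and 76.7% of those in the control mark. CpG-rich regions near a TSS and outside the mark were thus not particular to the cultures with *Brg1* deleted. The part of base composition in calling the mark was not tested.

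None of the searched motifs was more frequent outside the mark than in promoters generally. On either strand of the central 300 bases, the E-box CACGTG was present in 4.48% of regions outside, 4.52% in the mark and 7.78% of promoter windows. The ETS-type motif CCGGAAG was present in 2.09%, 2.68% and 10.8%, and GCGCATGC, part of the NRF1 motif, in 0.597%, 0.716% and 3.29%. The repeat GAGAGAG was present in 7.16%, 9.93% and 10.1%. The CRE motif TGACGTCA, the GATA motif AGATAAG and the forkhead motif TGTTTAC were each present in under 1.5% of regions outside (0.299%, 0.896% and 1.49%) and in 2.32%, 2.74% and 3.11% of promoter windows. These are matches of letters and not binding sites.

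H3K27ac, which took no part in choosing the regions, was more common outside the mark. It was called in both 4-OHT libraries over 68 of 335 regions outside (20.3%, interval 16.1 to 25.01) and over 138 of 2236 in the mark (6.17%, interval 5.21 to 7.25). The share was 28.2% for the 117 regions over 5 kb away and 16.1% for those beside the mark. Between 500 and 1000 bp of width it was 21.7% outside and 4.49% in the mark, and the plot by width shows the same order in each class. Without H3K27me3 replicate 1 the share outside was 19.5%. In the control H3K27ac libraries the same regions were acetylated at 12.8% outside and 4.70% in the mark. The control cultures' own Suz12 regions had the same order. Control H3K27ac was called over 6 of 52 outside the control mark (11.5%, interval 4.35 to 23.4) and 57 of 1936 in it (2.94%). More H3K27ac outside the mark was thus not particular to the cultures with *Brg1* deleted. Regions are not replicates, and cells with and without a mark cannot be separated in bulk cultures, so overlap of Suz12 and H3K27ac calls does not place both on the same chromosomes.

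**Figure D3:**
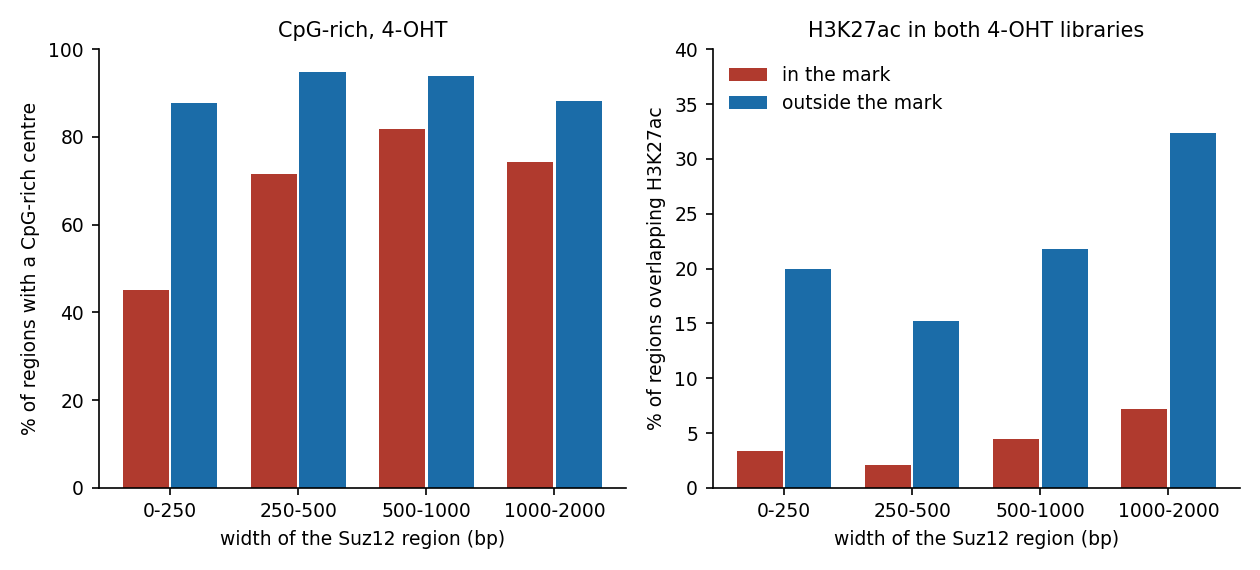
Percentage of 4-OHT Suz12 regions with a CpG-rich centre (left) and overlapping H3K27ac in both 4-OHT libraries (right), by width of the region in bp, for regions in (red) and outside (blue) H3K27me3. Outside the mark both percentages are higher in each width class, for example 93.9% against 81.9% CpG-rich between 500 and 1000 bp.

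Fewer of the regions outside the mark were seen in control cultures. Suz12 was called in at least 1 control library over 183 of 335 (54.6%) and in both over 97, whereas 90.7% of the regions in the mark had Suz12 in at least 1. Part of this gap went with width, since narrow regions were seen less often in control in both classes. Under 250 bp the shares were 24.6% outside and 53.3% in the mark. Between 500 and 1000 bp they were 66.1% and 84.2%. The control mark covered 154 of the 335 (46.0%) and 97.9% of those in the 4-OHT mark. Brg1-FLAG regions came from a separate line with a FLAG-tagged Brg1, and 1 of the 3 FLAG lists held 192 regions against 8021 and 8257 in the others. Those called in at least 2 of 3 overlapped 5 of the 335 regions outside and 19 of the 2236 in the mark.

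On chromosome X most Suz12 regions lay outside the mark. In 4-OHT, 17 of its 28 Suz12 regions (60.7%) lay outside the mark, against 318 of 2543 on the autosomes (12.5%, with 4.82 to 18.1% for single autosomes). In control, 1 of 24 on chromosome X (4.17%) and 2.60% on the autosomes lay outside. Library by library, 62.8% and 64.2% of the chromosome X regions of Suz12 replicates 1 and 2 were outside in 4-OHT and 18.4% and 22.5% in control, whereas on the autosomes the shares were 17.4% and 25.7% in 4-OHT and 7.86% and 8.63% in control. H3K27me3 replicates 1, 2 and 3 overlapped 3, 18 and 11 of the 28 regions in 4-OHT, and 9, 24 and 21 of 24 in control. The share of covered length that lay on chromosome X was 0.192 to 0.372% in the 4-OHT H3K27me3 libraries and 0.460 to 0.685% in control, so these groups did not overlap, whereas for Suz12 it was 0.563 and 0.709% in 4-OHT and 0.639 and 0.667% in control. The control mark covered 10 of the 17 regions. They included promoters of *Elf4*, an ETS transcription factor gene, and *Mamld1*. At *Elf4* the Suz12 region was 1725 bp wide, had Suz12 in both control libraries and the control mark, and was overlapped by a call of 1 4-OHT H3K27me3 library, with the nearest 4-OHT region called in at least 2 lying 5025125 bp away. Counts on this chromosome are small, and it was singled out after its values were seen.

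**Figure D4:**
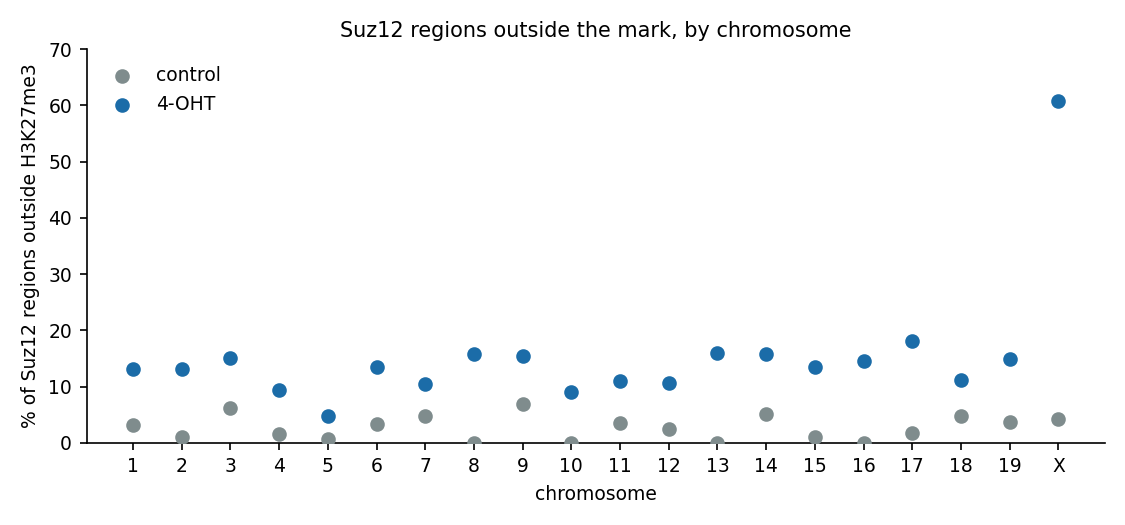
Percentage of Suz12 regions called in both replicates that lie outside H3K27me3 on each chromosome, in control (grey) and 4-OHT (blue). In 4-OHT chromosome X is at 60.7% (17 of 28 regions) and the autosomes at 4.82 to 18.1%; in control chromosome X is at 4.17%.

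By genes, Suz12 without H3K27me3 was rare. Suz12 was called in both 4-OHT replicates within 5 kb of a TSS of 1885 protein-coding genes (8.42% of 22380), and H3K27me3 in at least 2 of 3 replicates at 2878 (12.9%). Both were present at 1815 of the 1885, and 70 (3.71% of the Suz12 genes, 0.313% of all) had Suz12 with H3K27me3 in fewer than 2 libraries. In control, 1442 genes (6.44%) had Suz12 and 2 of them, *Coro2b* and *Ptp4a3*, lacked the mark. With H3K27me3 replicate 1 left out, and the mark thus required in both of the others, the numbers were 161 in 4-OHT and 10 in control, and the number with the mark in no library at all was 18 in 4-OHT and 0 in control. Of the 70, 39 had H3K27me3 in replicate 2, 11 in replicate 1 and 2 in replicate 3. At these 52 genes the one library with the mark covered a median of 262.5 bp, between 25 and 1425 bp.

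Suz12 at these genes was narrow. In replicate 1 it covered 25 to 1500 bp of the window (median 175) and in replicate 2 25 to 2000 bp (median 425), against medians of 825 and 1225 bp at the 1815 genes with the mark. Replicate 2 covered more than replicate 1 at 63 of the 70. At 53 genes the calls of both replicates overlapped each other, in 49 distinct regions of which 21 spanned a TSS, 18 lay in an exon, 5 in an intron and 5 between genes. At the remaining 17 each replicate had its own region in the window. The values near the limit show how close the classes are. *Kif1a*, just on the side of the mark, had 25, 25 and 0 bp of H3K27me3 in replicates 1, 2 and 3 with 100 and 700 bp of Suz12. *Pcdh1*, on the other side, had 0, 1275 and 0 bp. A gene with more of the mark in all can thus be without it by the count of libraries.

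**Figure D5:**
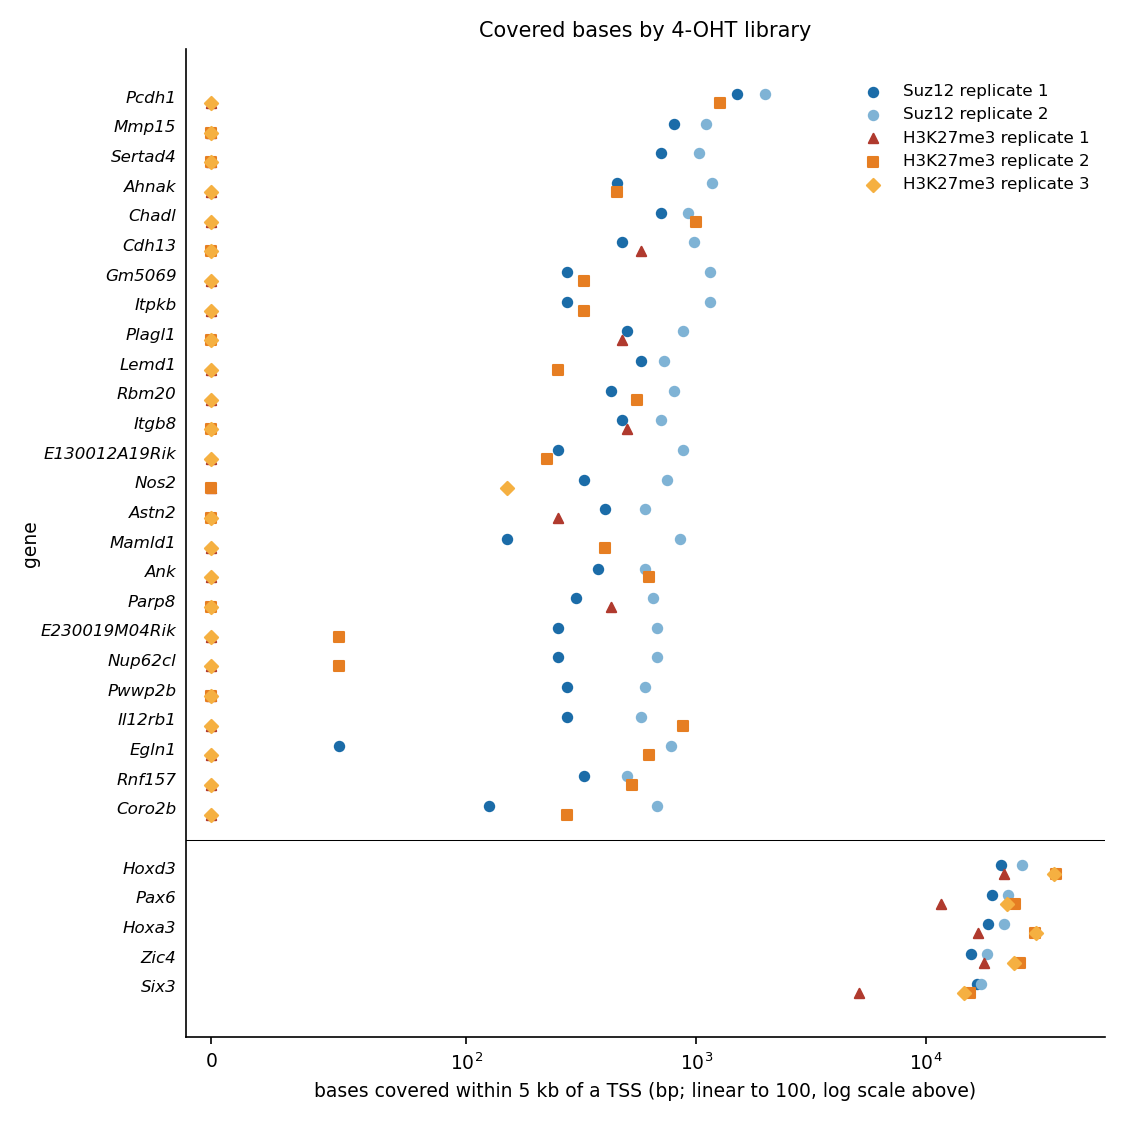
Bases covered within 5 kb of a TSS by Suz12 (blue circles) and H3K27me3 (red triangles, orange squares and yellow diamonds for replicates 1, 2 and 3) in each 4-OHT library, in bp, for the 25 genes with Suz12 without the mark that had the most Suz12 (above the line) and the 5 genes with both that had the most (below). Values on the axis are linear to 100 bp and logarithmic above. Above the line at most 1 H3K27me3 library is off 0 for each gene, as the choice of genes requires, and below it all 3 are.

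The 25 genes with the most Suz12-covered bases are described by what they encode, an ordering made after the genes were known, with adhesion and matrix proteins first. The rule that chose them required few H3K27me3 calls in 4-OHT, which by itself favours more of the mark in control. *Pcdh1*, which encodes a protocadherin, had 1500 and 2000 bp of Suz12 in 4-OHT and 1925 and 1125 bp in control. Its H3K27me3 covered 0, 1275 and 0 bp in 4-OHT and 275, 2075 and 600 bp in control, so the gene kept Suz12 while the mark was called in fewer libraries. *Mmp15*, a membrane-type matrix metalloproteinase gene with a Suz12 region over its TSS (chr8:97876201-97877300), had 800 and 1100 bp of Suz12 in 4-OHT and none in either control library. No 4-OHT library marked it, and in control H3K27me3 covered 550, 0 and 50 bp. Its H3K27ac covered 1250 and 950 bp in 4-OHT and 925 and 525 bp in control, so Suz12 was called at an acetylated promoter. *Cdh13*, the T-cadherin gene, had 475 and 975 bp of Suz12 in 4-OHT and 75 and 0 bp in control, and no H3K27ac in any library. Its H3K27me3 was 575, 0 and 0 bp in 4-OHT and 625, 1350 and 1250 bp in control. *Itgb8*, which encodes an integrin β subunit, had 475 and 700 bp of Suz12 in 4-OHT and none in control, with H3K27ac in all 4 libraries. *Astn2*, a neuronal adhesion gene, had 400 and 600 bp in 4-OHT, none in control, and no H3K27ac.

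Others of the 25 encode nuclear proteins, RNA-binding proteins or proteins linked to transcription. *Sertad4*, with a Suz12 region over its TSS (chr1:194681051-194682100), had 700 and 1025 bp of Suz12 in 4-OHT and 1325 and 625 bp in control. H3K27me3 was called there in no 4-OHT library but covered 1075, 1525 and 675 bp in control, so it was marked in every control library and Suz12 was called in all 4. *Plagl1*, an imprinted zinc finger gene with a Suz12 region over its TSS (chr10:12810451-12811325), had 500 and 875 bp of Suz12 in 4-OHT, 125 and 625 bp in control, 475, 0 and 0 bp of H3K27me3 in 4-OHT and 950, 1100 and 675 bp in control. Its mark was thus called in each control library and only in the narrow replicate 1 of 4-OHT. *Pwwp2b*, which encodes a chromatin-binding protein, had 275 and 600 bp of Suz12 and no H3K27me3 in 4-OHT, and 0 and 25 bp of Suz12 with 200, 275 and 475 bp of H3K27me3 in control. It was acetylated in all 4 H3K27ac libraries, over 1025 to 1725 bp. *Mamld1* and *Parp8*, an ADP-ribosyltransferase family gene, had 150 and 850 bp and 300 and 650 bp of Suz12 in 4-OHT, and the control mark in all 3 libraries. *Rbm20*, a splicing regulator of titin in heart muscle, had 425 and 800 bp of Suz12 in 4-OHT and 175 and 0 bp in control, and its H3K27ac covered 0 bp in both 4-OHT libraries and 375 and 575 bp in control.

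The signalling and metabolic genes among the 25 were *Itpkb*, an inositol trisphosphate kinase gene that shares its Suz12 region with *Gm5069*, *Nos2* (inducible nitric oxide synthase), *Il12rb1* (an interleukin receptor chain), *Egln1* (a prolyl hydroxylase of hypoxia-inducible factor), *Ank* (pyrophosphate export) and *Rnf157* (a ubiquitin ligase). At *Itpkb* Suz12 covered 275 and 1150 bp in 4-OHT and none in control, with H3K27me3 over 0, 325 and 0 bp in 4-OHT and 0, 625 and 725 bp in control. *Egln1* rested almost wholly on Suz12 replicate 2, with 50 and 775 bp in 4-OHT and 25 and 25 bp in control. *Ahnak*, the gene of a giant scaffold protein, had 450 and 1175 bp in 4-OHT and 300 and 500 bp in control, and was among the most acetylated, with 5451 and 1901 bp in 4-OHT and 2576 and 875 bp in control. The others of the 25 were *Chadl*, *Lemd1*, *E130012A19Rik*, *Coro2b* (a coronin gene), *E230019M04Rik* and *Nup62cl*, and the last pair shares 1 region on chromosome X. Over the 25, Suz12 covered 50 to 1500 bp in replicate 1 and 500 to 2000 bp in replicate 2, which was the higher at all 25. H3K27me3 was called in no 4-OHT library at 3 of them, in replicate 2 alone at 16, in replicate 1 alone at 5 and in replicate 3 alone at 1.

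*Slc38a3*, an amino acid transporter gene, and *Zfp462*, a zinc finger gene, were the members of the fixed gene lists among the 70. *Slc38a3* had 100 and 125 bp of Suz12 in 4-OHT and none in control, with 0, 1425 and 0 bp of H3K27me3 in 4-OHT and 275, 1175 and 1225 bp in control. *Zfp462* had H3K27me3 over 0, 150 and 0 bp in 4-OHT and 1975, 2825 and 200 bp in control, less in each library number, while H3K27ac covered 1975 and 1650 bp in 4-OHT and 1475 and 650 bp in control. The remaining genes named here were *Mpg*, *Rhbdf1*, *Cbln4*, *Epb4.1l3*, *Arid4a*, *Rprm*, *Clcf1*, *Ptp4a3*, *Arc*, *Tmem28*, *Ltbp3*, *Sned1*, *Tprn*, *Dph1*, *N4bp2l1*, *Rtn4rl1*, *Ctdspl*, *Bcl11b*, *Mcam*, *Mpp3*, *Adcy3*, *Jag1*, *Dolpp1*, *Ror2*, *Mlycd*, *Cabin1*, *Mal2*, *Tst*, *A4galt*, *Gm5089*, *Hpgd*, *Prkcc*, *Crabp2*, *Gm3625*, *Itsn2*, *Tspan11*, *Adam22*, *Gabrg3*, *Gm9962*, *Igsf3* and *Mark1*. They include *Jag1*, a Notch ligand gene, with 200 and 175 bp of Suz12 in 4-OHT and none in control, and *Ror2*, a Wnt5a receptor gene, with H3K27me3 over 0, 0 and 100 bp in 4-OHT and 325, 100 and 0 bp in control. Both were chosen after their values were seen.

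Most of the 70 were marked in control. H3K27me3 was called in at least 2 of 3 control replicates at 46 of them, in 1 at 18 and in none at 6. The share was 15.1% of all protein-coding genes, but 96.3% and 100% of the genes with Suz12 and 2 or 3 H3K27me3 libraries in 4-OHT. Choosing the 70 for the mark in fewer than 2 of 3 4-OHT libraries favours more calls of it in control than in 4-OHT. H3K27me3 covered fewer bases in every 4-OHT library than in any control at 8 of the 70 (11.4%). This was close to the 11.35% of genes with Suz12 and the mark and above the 2.45% of all protein-coding genes. Suz12 was called in both control replicates at 18, in 1 at 13 and in neither at 39. By joint state, 16 had Suz12 and the mark in control, 30 the mark without Suz12 in both replicates, 2 Suz12 alone and 22 neither. More Suz12 bases in both 4-OHT libraries than in either control were found at 51 of the 70, beside 745 of the 1815 genes with Suz12 and the mark (41.05%) and 3.56% of all genes. Choosing genes for Suz12 in both 4-OHT libraries favours this in both sets. Seen from control, 1440 genes had Suz12 with the mark. In 4-OHT 1370 of these kept both by the same counts, 46 had the mark without Suz12 in both replicates, 16 had Suz12 without the mark and 8 had neither.

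The more H3K27me3 libraries marked a Suz12 gene, the smaller was the share with H3K27ac. It was called in both 4-OHT replicates at 14 of 18 genes with Suz12 and no H3K27me3 library (77.8%), 23 of 52 with 1 (44.2%), 100 of 241 with 2 (41.5%) and 354 of 1574 with 3 (22.5%). The median Suz12-covered length was larger along the same order, at 244, 344, 525 and 1175 bp. For the 70 genes together the H3K27ac share was 52.9%, which is close to that of all protein-coding genes (50.3%) and above that of genes with Suz12 and the mark (454 of 1815). The control H3K27ac libraries gave 48.6% at the 70. H3K27ac covered more bases in both 4-OHT libraries than in either control at 20 of the 70 (28.6%), beside 22.2% of all genes, and fewer at 5 (7.14%), beside 7.73%. Brg1-FLAG was called in at least 2 of 3 libraries within the window at 10 of the 70 (14.3%), beside 4.93% of all genes and 7.60% of those with Suz12 and the mark.

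The developmental regulators that PRC2 is best known for were not among these genes. Of 214 genes in 14 transcription factor families, including the *Hox*, *Pax*, *Fox*, *Sox*, T-box, *Gata*, *Irx* and *Dlx* genes, 161 (75.2%) had Suz12 in 4-OHT, against 8.42% of all genes. None of the 161 lacked the mark, and 159 had it in all 3 libraries. *Sox8* and *Sox10* had it in 2. Of all 1885 genes with Suz12, 1815 had the mark in at least 2 libraries and 1574 in all 3. Suz12 was wide in these families, with a median covered length of 2856 bp (*Sox*) to 8487 bp (*Hox*). No Suz12 region of 4000 bp or wider lay outside the mark, and the part of width here was not tested. The 5 genes with the most Suz12 were *Hoxd3*, *Pax6*, *Hoxa3*, *Zic4* and *Six3*. At *Hoxd3*, which has several TSSs and hence a wide window, Suz12 covered 21190 and 26121 bp and H3K27me3 21956, 36987 and 36196 bp, and at *Six3*, a forebrain and eye regulator, they covered 16624 and 17424 bp and 5100, 15624 and 14599 bp. No 4-OHT or control library called H3K27ac at either. Of 19 *Wnt* ligand genes 15 had Suz12, all with the mark, as did 11 of 22 *Fgf* and 9 of 21 *Bmp* and *Gdf* genes. Among lists that PRC2 is not known to bind, 1 of 80 cytoplasmic ribosomal protein genes and 1 of 11 genes for PRC2 subunits and cofactors had Suz12, both with the mark. Of 344 *Zfp* genes 15 had Suz12 and of 355 solute carrier genes 40.

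Of the 14 mesoderm markers 8 had Suz12 in both 4-OHT libraries, all with the mark by the count of libraries in the window. In control 4 had Suz12 in both libraries. Over all protein-coding genes Suz12 was also called at more in 4-OHT (1885, 8.42%) than in control (1442, 6.44%). The covered length varied widely among the 8. *Gsc*, an organizer homeobox gene, had 6550 and 7175 bp of Suz12 in 4-OHT and 5650 and 4875 bp in control. *Lhx1* had 2900 and 7150 bp in 4-OHT and 2475 and 4300 bp in control, and *Pdgfra*, a growth factor receptor gene, 1425 and 3150 bp and 725 and 1400 bp. The other markers had shorter calls. *Eomes*, a T-box regulator of the primitive streak, had 125 and 1725 bp of Suz12 in 4-OHT and 0 and 175 bp in control, H3K27me3 in all 6 libraries, and H3K27ac over 2825 and 5275 bp in 4-OHT. *T* (brachyury) had 25 and 250 bp of Suz12 in 4-OHT and none in control. *Mixl1*, a homeobox gene of the streak, had 50 and 125 bp of Suz12 and 25, 0 and 25 bp of H3K27me3 in 4-OHT and neither in any control library, so it was marked only by calls of the narrowest width that a list can hold. No H3K27me3 call lay over its shared Suz12 region of 125 bp, which was 212875 bp from the nearest region called in at least 2 libraries. By regions, *Mixl1* was thus outside the mark. *Kdr*, the VEGF receptor gene of haemangioblasts, had 775 and 1025 bp in 4-OHT and 0 and 650 bp in control, with H3K27me3 in all 6 libraries and no H3K27ac in 4-OHT.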

How the data were processed

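ChIP-seq was performed on day 4 cultures with antibodies to SUZ12 and H3K27me3, and reads were aligned by the authors to mm9 with Bowtie (version not given in the sources used here). The authors deposited, per replicate, lists of regions enriched over input under a Poissonian model, with 1e-12 as the threshold in the headers (1e-06 for FLAG). Each deposited list holds chromosome, start and end, in steps of 25 bp, with no count or signal, and inputs have no list here. Overlapping calls of different replicates (1 bp or more) were joined into 1 region. A Suz12 region had to be called in both replicates and an H3K27me3 region in at least 2 of 3. Genes were 22380 protein-coding records of GENCODE vM1 on NCBIM37, with windows of 5 kb on each side of every TSS, and a gene lacked the mark when fewer than 2 of 3 H3K27me3 libraries had a region in its window. Genes named were the 25 with the most Suz12-covered bases (mean of both replicates), any in the 30 gene lists, and, with Suz12 and the mark, the 5 with the most. The members and lists were chosen with earlier results of these data known. Replicate shares were compared by two-sided exact permutation tests over libraries. The labels call the replicates biological but do not name the cultures, so p-values measure the spread between these samples. Same-numbered H3K27me3 libraries deviated together across conditions (correlations of log2(bp + 1) deviations over 3457 genes 0.545, 0.34 and 0.344), so their numbers were taken to pair them, as seen from the data. Shares of regions carry exact (Clopper-Pearson) 95% intervals, for counting error only. A sequence is shown for some members only, and some members are not reported here by name. The genome copy was not soft-masked, so a repeat share was not computed. Scripts ran under Python 3.11.15 with NumPy 2.4.6 and SciPy 1.17.1 and were tested on simulated data.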

Additional observations from a re-analysis of the deposited data

How the results depend on the processing

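No alternative turned the direction of a comparison between conditions. All 13 alternatives for the share of Suz12 in the mark kept a difference below 0, from -20.3 to -6.42 points, and all 10 for the share of the mark in Suz12 regions kept one above 0, from 1.29 to 15.0 points. With the replicate number as a block, the differences were -13.6 (exact sign-flip p = 0.5) and 7.33 points (p = 0.25). These are the smallest p that 2 and 3 pairs allow, so no call of significance could have changed. Same-numbered Suz12 libraries correlated at 0.0598 over 1738 genes, so they share only a number. The counts depended strongly on the rules. Share of Suz12 regions in the mark, number outside, and genes without the mark were 86.97%, 335 and 70 as reported. With Suz12 in either replicate they were 72.8%, 1183 and 218. With the mark in any of 3 they were 92.8%, 185 and 18, and in all 3 72.4%, 710 and 311. Leaving out a Suz12 replicate gave 73.8 to 82.1%, 655 to 1051 and 84 to 204 genes. Leaving out H3K27me3 replicate 1, 2 or 3, with the mark then required in both of the others, gave 64.7 to 84.4%, with 400, 907 and 692 regions outside and 161, 302 and 229 genes. Suz12 regions of at least 300 bp gave 94.4%, 108 and 16, and H3K27me3 regions of at least 500 bp gave 78.8%, 546 and 334. Bases called in both Suz12 replicates left 525 regions outside, joining regions within 1 kb left 199, and H3K27me3 bases called in at least 2 of 3 gave 124 genes. An overlap of at least 50% gave 80.6%, and counting regions within 1 or 5 kb as in the mark gave 94.1% with 152 outside and 95.4% with 117. A window of 1 kb gave 143 genes, whereas 2.5 and 10 kb gave 70 and 73. Judging genes by merged regions, an alternative chosen after seeing the data, gave 98 genes, which included 53 of the 70. H3K27ac in either library gave 27.8% of regions outside the mark, and leaving out H3K27ac replicate 1 or 2 gave 20.6 and 26.6%. With no read counts a weak mark cannot be told from none.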

Other observations

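Some of the widest Suz12 regions over 5 kb from the 4-OHT mark (H3K27me3 called in at least 2 of 3 libraries) were at genes not named above. *Lonrf3*, on chromosome X, had a Suz12 region of 1100 bp at its promoter with H3K27ac, Suz12 in both control libraries and the control mark, and was overlapped by a call of 1 4-OHT H3K27me3 library, with the 4-OHT mark 719600 bp away. A region of 1300 bp lay 3844 bp from a TSS of *Id2*, which encodes an inhibitor of bHLH transcription factors. It had H3K27ac in both 4-OHT libraries, Suz12 in neither control library and the control mark, and was 416450 bp from the 4-OHT mark. *Ugt8a*, a galactosyltransferase gene of myelin lipid synthesis, had a region of 1025 bp with Suz12 in both control libraries and the control mark, 1560050 bp from the 4-OHT mark, over which 2 H3K27me3 libraries had calls that did not overlap. These were picked after their values were seen.

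Some pluripotency genes carried Suz12 and the mark at the mesoderm stage. *Esrrb* had 2025 and 2450 bp of Suz12 and no H3K27ac, whereas *Klf4* had 1475 and 1725 bp of Suz12 with H3K27me3 over 250, 1375 and 1300 bp and H3K27ac over 1350 and 1150 bp. *Sox2* had 2850 and 3850 bp of Suz12 in 4-OHT and 4300 and 3575 bp in control. Its H3K27me3 covered 575, 2050 and 425 bp in 4-OHT and 3007, 5932 and 3382 bp in control, so each 4-OHT library was below every control library. This pattern was found at 11.4% of the 1815 genes with Suz12 and the mark and 2.45% of all protein-coding genes.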
